A study of Mus musculus with 18 samples.

Results

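The common gamma chain cytokine receptor genes and their STAT5 arm were described across maturing invariant natural killer T (iNKT) cells of the mouse thymus. The set was named by gene symbol: the receptor chains Il2ra, Il2rb, Il2rg, Il7r, Il15ra and Il21r, the kinases Jak1 and Jak3, and the transcription factors Stat5a and Stat5b. A gene was measured where an array probe set carried its symbol and no other, and the brightest such probe set stood for the gene. Of the 10 genes, 8 were measured in this way among 13034 genes tested. Il2rg had no probe set named for it alone, and the probe set naming Jak3 also names Insl3, its neighbor on the chromosome. Both genes were not analysed here.

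The receptors for IL-2, IL-4, IL-7, IL-9, IL-15 and IL-21 share the gamma chain, which Il2rg encodes, and each cytokine adds its own chain or chains. JAK1 binds the cytokine-specific chain and JAK3 the gamma chain, and together they phosphorylate STAT proteins, with STAT5A and STAT5B serving IL-2, IL-7 and IL-15 most. In the thymus, IL-15 presented to cells bearing the IL-2 and IL-15 receptor beta chain is known to support the last maturation step of iNKT cells, and IL-7 their survival and expansion.

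The cells came from C57BL/6 mice of 2 genotypes: wild type (WT), and mice in which a Cd4-driven Cre recombinase acts on floxed Mst1 (Cd4Cre Mst1 fl/fl, here Mst1KO). MST1 is a kinase of the Hippo pathway, encoded by Stk4. The Cd4 promoter drives Cre from the CD4 and CD8 double-positive thymocyte onward, so deletion is not limited to iNKT cells. From each genotype, T cells that bound the CD1d tetramer and lacked CD24 were sorted into 3 developmental stages, namely S1 (CD44- NK1.1-), S2 (CD44+ NK1.1-) and S3 (CD44+ NK1.1+), with 3 arrays for each of the 6 groups and 18 in all. The age of the mice is not given in the labels used here, and no treatment is named. The series design counts 3 mice of each genotype without tying arrays to single mice. A p-value here therefore speaks of the spread among the samples as labeled, part of which may be technical. RNA was amplified before labeling, and 3 arrays per group limit the precision of every value.

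Levels are the deposited log2 expression values, on which a difference of 1 is a doubling. Each difference is a log2 difference ± SE from groups of 3 arrays (n = 3), and a gene was called changed at a limma adjusted p (Benjamini-Hochberg over the 13034 genes) under 0.05. Array medians lay between 4.81 and 4.93, and all 8 measured genes lay above their array's median on 18 of 18 arrays. Stk4 was lower on every Mst1KO array than on every WT array of the same stage, with differences of -0.29, -0.35 and -0.39 (each ± 0.11) along the stages, none of which passed the test. The labels do not say whether its probes lie in the deleted part. The mean level of 5 T and iNKT cell marker genes was 11.2 to 11.7 on all arrays, and it differed between genotypes (ranges given below). The labels describe an enrichment step with CD8 beads, named as positive selection. Of the CD8 chains, Cd8a passed the median on 1 array and Cd8b1 on 18. Of the 5 regulatory T cell genes followed, Foxp3, Ctla4 and Lrrc32 passed it on 1, 0 and 0 arrays, and Ikzf2 and Ikzf4 on 18 and 17.

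Upstream sequence is shown for Il2ra, Il7r and Il21r, the 3 receptor chains that were called from S1 to S2 in Mst1KO and had a RefSeq window. Each is the 250 bases before the transcription start in RefSeq (build GRCm38.p6), 5′ to 3′ on the gene's strand, with motif matches in capitals. RefSeq windows were given for 7 of the 8 measured genes, and Il2rb had none. Il2ra lies at chr2:11642542-11642791 on the plus strand, Il7r at chr15:9529877-9530126 on the minus strand and Il21r at chr7:125603179-125603428 on the plus strand.
Il2ra: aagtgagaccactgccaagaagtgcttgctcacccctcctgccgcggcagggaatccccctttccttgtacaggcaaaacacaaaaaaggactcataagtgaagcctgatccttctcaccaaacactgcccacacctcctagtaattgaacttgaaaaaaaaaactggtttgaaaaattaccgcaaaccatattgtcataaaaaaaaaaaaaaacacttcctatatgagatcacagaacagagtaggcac
Il7r: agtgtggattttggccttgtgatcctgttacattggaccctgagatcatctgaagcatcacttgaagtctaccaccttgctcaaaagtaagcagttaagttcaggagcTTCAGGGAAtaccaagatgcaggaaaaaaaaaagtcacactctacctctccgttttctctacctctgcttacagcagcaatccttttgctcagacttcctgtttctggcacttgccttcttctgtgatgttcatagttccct
Il21r: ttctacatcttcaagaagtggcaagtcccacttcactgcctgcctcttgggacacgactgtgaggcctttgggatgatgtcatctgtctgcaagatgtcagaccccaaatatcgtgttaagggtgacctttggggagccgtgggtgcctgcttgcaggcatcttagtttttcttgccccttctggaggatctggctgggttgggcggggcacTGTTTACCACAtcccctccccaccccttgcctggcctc

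The letters searched were those of 4 motifs, on both strands of windows of 300 bases that run on past the start: the STAT element TTCNNNGAA, the forkhead (FOXO) core GTAAACA, the RUNX core TGTGGT and the T-box core GGTGTGA. Of 32851 RefSeq windows, 8.3% held the STAT letters, 3.65% the FOXO letters, 16.8% the RUNX letters and 3.98% the T-box letters. The Il7r window held the STAT letters from 142 bases before the start, and RUNX letters just past the start, in bases that are not shown. The Il21r window held FOXO letters from 38 bases and RUNX letters from 33 bases before the start, the 2 matches sharing 2 bases on the strand opposite to the one shown. The Il2ra window held none of the 4. Il2ra and Il15ra are direct neighbors on chromosome 2, Stat5a and Stat5b on chromosome 11, and Il21r stands next to Il4ra, the IL-4 receptor chain, on chromosome 7. A match describes letters only, and no binding was measured.

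**Figure D1:**
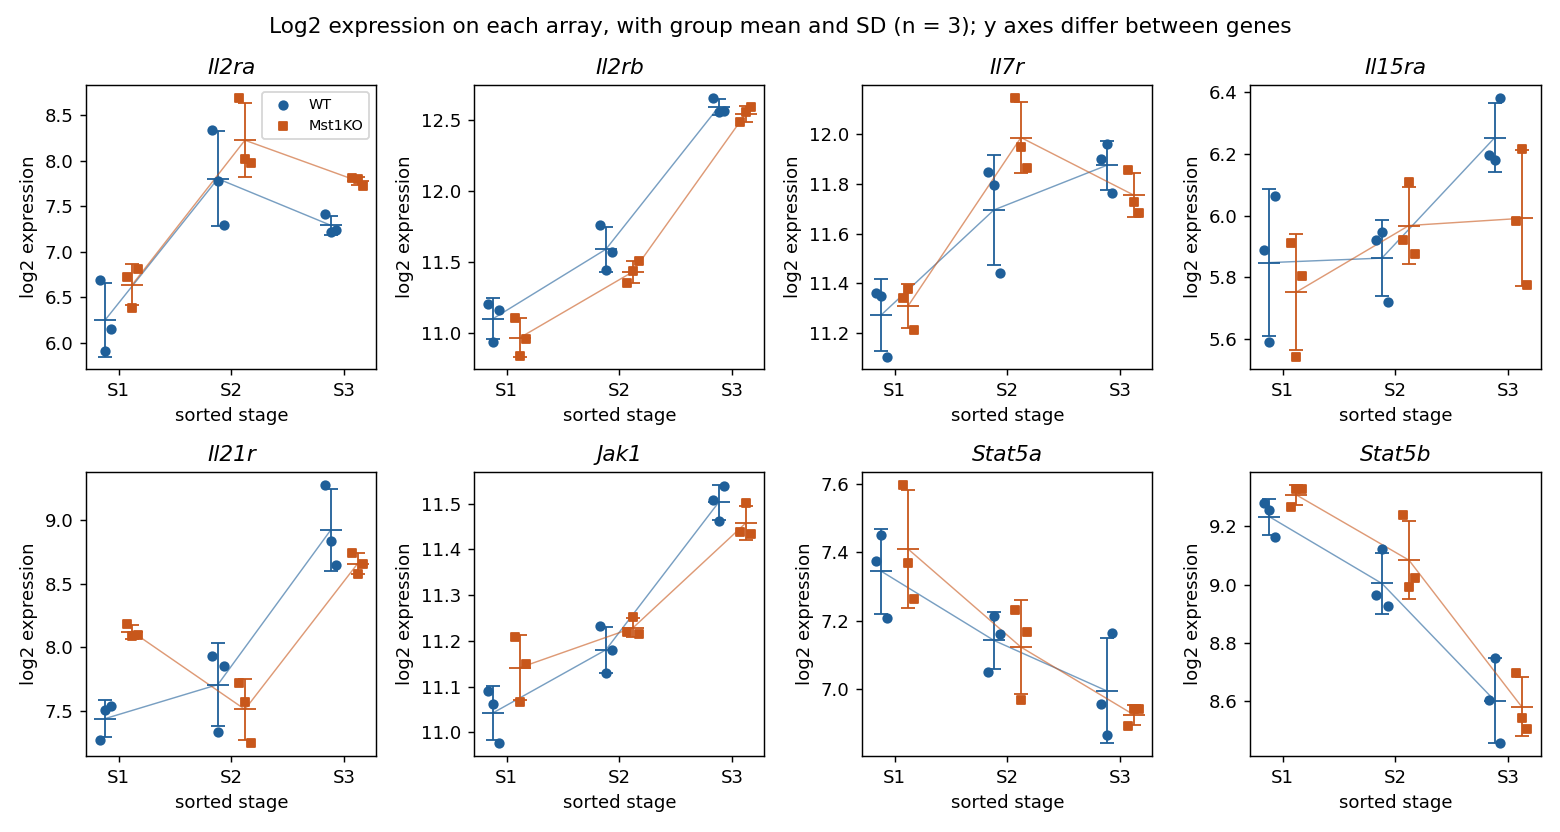
Log2 expression (y axis, scale differing between genes) of the 8 measured genes at S1, S2 and S3 (x axis) in WT (circles) and Mst1KO (squares). Points are single arrays, and bars give the group mean ± SD (n = 3). Il2rb and Jak1 climb to S3 in both genotypes, and Stat5b descends. Il2ra has its highest mean at S2, although its fall to S3 was not called.

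How the receptor system changes as iNKT cells mature was read first within each genotype. From S1 to S2 the high-affinity IL-2 receptor chain Il2ra and the IL-2 and IL-15 receptor beta chain Il2rb rose in both genotypes, and Il7r rose and Il21r fell in Mst1KO. From S2 to S3, Il2rb, Il21r and Jak1 rose and Stat5b fell, in WT and in Mst1KO. In WT, 2 of 8 genes were called from S1 to S2, where 3.84% of all genes tested were, and 4 of 8 from S2 to S3, beside 23.6%. In Mst1KO the counts were 4 of 8 beside 6.67%, and 4 of 8 beside 17.2%. The median difference of the 8 genes was 0.20 (S1 to S2) and 0.25 (S2 to S3) in WT and 0.15 and -0.09 in Mst1KO, beside medians over all genes between -0.03 and 0.00. In sorted bulk samples, a change in the share of expressing cells and a change in RNA per cell cannot be told apart.

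Il2ra encodes CD25, the alpha chain that raises the affinity of the receptor for IL-2. Its WT levels were 6.69, 5.91 and 6.15 at S1, 8.33, 7.78 and 7.29 at S2, then 7.41, 7.22 and 7.24 at S3. In Mst1KO they were 6.72, 6.38 and 6.81, then 8.69, 8.01 and 7.97, then 7.81, 7.80 and 7.72. Each S2 array thus lay above every S1 array of its genotype, and the S3 arrays were much closer to each other than those of S1 or S2. The rise from S1 to S2 was 1.55 ± 0.24 in WT (2.93-fold, adjusted p = 0.00118) and 1.59 ± 0.24 in Mst1KO (3.00-fold, adjusted p = 0.000547). From S2 to S3 it differed by -0.51 ± 0.24 in WT (adjusted p = 0.146) and -0.45 ± 0.24 in Mst1KO (adjusted p = 0.234), neither called, although the WT value was called without the third WT S2 array (-0.77, adjusted p = 0.0329). In order of mean level, WT S1 and Mst1KO S1 overlapped at the bottom, and WT S3 and then Mst1KO S3 followed, each without overlap with the group before it. At the top, WT S2 overlapped both Mst1KO S3 and Mst1KO S2, which did not overlap each other. The WT S3 arrays also overlapped the WT S2 arrays, the lowest of which read 7.29. The 5 regulatory T cell markers, measured beside it, had a mean level of 5.32 to 5.49 at WT S1 and 5.31 to 5.49 at WT S2, and of 5.35 to 5.49 and 5.04 to 5.26 in Mst1KO. Their part in the Il2ra values was not tested.

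Il2rb encodes CD122, the signaling beta chain of the IL-2 and IL-15 receptors. WT arrays read 11.20, 10.94 and 11.16 at S1, 11.76, 11.44 and 11.57 at S2, then 12.65, 12.55 and 12.56 at S3. Mst1KO arrays read 11.11, 10.84 and 10.96, then 11.35, 11.44 and 11.51, then 12.48, 12.55 and 12.59. Within each genotype the 3 stages were fully separated, and the genotypes overlapped at each stage. The step from S2 to S3 doubled the level, by 1.00 ± 0.10 in WT (adjusted p = 1.84e-06) and 1.11 ± 0.10 in Mst1KO (adjusted p = 1.07e-06). The earlier step was smaller, 0.49 ± 0.10 in WT (adjusted p = 0.0103) and 0.46 ± 0.10 in Mst1KO (adjusted p = 0.00979). These S1 to S2 calls were lost when 1 array was left out: in WT without the second S1 array (0.41, adjusted p = 0.0647) or the first S2 array (0.40, adjusted p = 0.0658), and in Mst1KO without the second S1 array (0.40, adjusted p = 0.0565). With only the 2 groups fitted, the WT value had an adjusted p of 0.128.

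Il15ra encodes the alpha chain that captures IL-15 and presents it to neighboring cells. Its array values ranged from 5.54 to 6.38. Its group means in WT were 5.85 ± 0.24 at S1, 5.86 ± 0.12 at S2 and 6.25 ± 0.11 at S3 (SD, n = 3), and in Mst1KO 5.75 ± 0.19, 5.97 ± 0.12 and 5.99 ± 0.22. Every neighboring pair of groups overlapped in the order of means. All 3 WT S3 arrays, at 6.20, 6.18 and 6.38, lay above all 3 WT S2 arrays, at 5.92, 5.95 and 5.72, and the difference of 0.39 ± 0.14 stood at an adjusted p of 0.0521. In Mst1KO the same step measured 0.02 ± 0.14 (95% confidence interval -0.27 to 0.32).

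Il7r encodes CD127, the IL-7 receptor alpha chain, a survival receptor of resting T cells. WT levels were 11.36, 11.35 and 11.11 at S1, 11.85, 11.79 and 11.44 at S2, then 11.90, 11.96 and 11.76 at S3. Mst1KO levels were 11.34, 11.38 and 11.21, then 12.14, 11.95 and 11.86, then 11.85, 11.73 and 11.68. In WT all S1 arrays lay below all S2 and S3 arrays, which overlapped, whereas in Mst1KO all S2 arrays lay above all S1 and S3 arrays. The S1 to S2 rise in Mst1KO was 0.67 ± 0.12 (adjusted p = 0.00164). In WT the difference was 0.42 ± 0.12 with an adjusted p of 0.0562, which became 0.0141 (at 0.55) without the third WT S2 array, the lowest of its group. The WT value was also called in 5 of 10 alternative settings, with adjusted p from 0.00953 with the replicate number as a block to 0.0453 with median centering, so the WT and Mst1KO steps are not set apart by these calls. From S2 to S3 the differences were 0.18 ± 0.12 in WT and -0.23 ± 0.12 in Mst1KO, neither called.

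Il21r encodes the IL-21 receptor chain, which signals mainly through STAT3. WT arrays read 7.27, 7.50 and 7.54 at S1, then 7.93, 7.33 and 7.85 at S2, then 9.28, 8.83 and 8.65 at S3. In Mst1KO S1 read 8.18, 8.08 and 8.10, S2 read 7.72, 7.57 and 7.24, and S3 read 8.74, 8.57 and 8.66. S1 and S2 overlapped in WT and did not in Mst1KO. The S3 arrays were the highest of each genotype, and no Mst1KO S1 array overlapped a WT S1, WT S2 or Mst1KO S2 array. From S2 to S3 Il21r rose by 1.21 ± 0.17 in WT (2.32-fold, adjusted p = 5.11e-05) and by 1.15 ± 0.17 in Mst1KO (2.22-fold, adjusted p = 0.000144). From S1 to S2 it differed by 0.27 ± 0.17 in WT (adjusted p = 0.477) and by -0.61 ± 0.17 in Mst1KO (adjusted p = 0.04). The Mst1KO fall was lost when any array of these groups other than the first Mst1KO S2 array was left out, with adjusted p from 0.0743 to 0.156, and with no filter on dim genes (0.0588).

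Jak1 encodes the kinase that docks on the cytokine-specific chains. WT arrays read 11.09, 11.06 and 10.98 at S1, 11.23, 11.13 and 11.18 at S2, then 11.51, 11.46 and 11.54 at S3. Mst1KO arrays read 11.21, 11.07 and 11.15, then 11.22, 11.25 and 11.21, then 11.44, 11.50 and 11.43. All S3 arrays of both genotypes lay above all S1 and S2 arrays. The S2 to S3 rise was 0.32 ± 0.07 in WT (1.25-fold, adjusted p = 0.00383) and 0.23 ± 0.07 in Mst1KO (1.17-fold, adjusted p = 0.0403). The Mst1KO call did not hold when any 1 of its 6 arrays was left out, with adjusted p from 0.0716 to 0.128. It was also lost with no filter (0.0892), median centering (0.0859), a replicate block within genotype (0.0702) and only the 2 groups fitted (0.108). The WT call did not hold with only the 2 groups fitted (0.0642). The S1 to S2 differences were 0.14 ± 0.07 and 0.09 ± 0.07, not called.

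Stat5a and Stat5b encode the 2 STAT5 proteins and lie side by side in the genome. Stat5b fell from S2 to S3, the step at which the receptor chain Il2rb rose most. Its WT arrays read 9.28, 9.26 and 9.16 at S1, 8.96, 9.12 and 8.93 at S2, then 8.60, 8.75 and 8.46 at S3. Mst1KO arrays read 9.27, 9.33 and 9.33, then 9.24, 8.99 and 9.02, then 8.70, 8.54 and 8.50. Stages did not overlap within a genotype, and the genotypes overlapped at every stage. Stat5b fell by 0.40 ± 0.10 from S2 to S3 in WT (adjusted p = 0.00608) and by 0.50 ± 0.10 in Mst1KO (adjusted p = 0.00164). The WT call did not hold with only the 2 groups fitted (adjusted p = 0.0591). From S1 to S2 the differences, -0.23 ± 0.10 in WT and -0.22 ± 0.10 in Mst1KO, were not called (adjusted p = 0.243 and 0.206).

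For Stat5a the group means were 7.35 ± 0.12, 7.14 ± 0.08 and 6.99 ± 0.15 from S1 to S3 in WT and 7.41 ± 0.17, 7.12 ± 0.14 and 6.92 ± 0.03 in Mst1KO (SD, n = 3). No step between neighboring stages was called, and the differences ran from -0.29 to -0.15. Every neighboring pair of the 6 groups overlapped in the order of Stat5a levels. Within Mst1KO, however, the stages did not overlap, while within WT neighboring stages did.

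**Figure D2:**
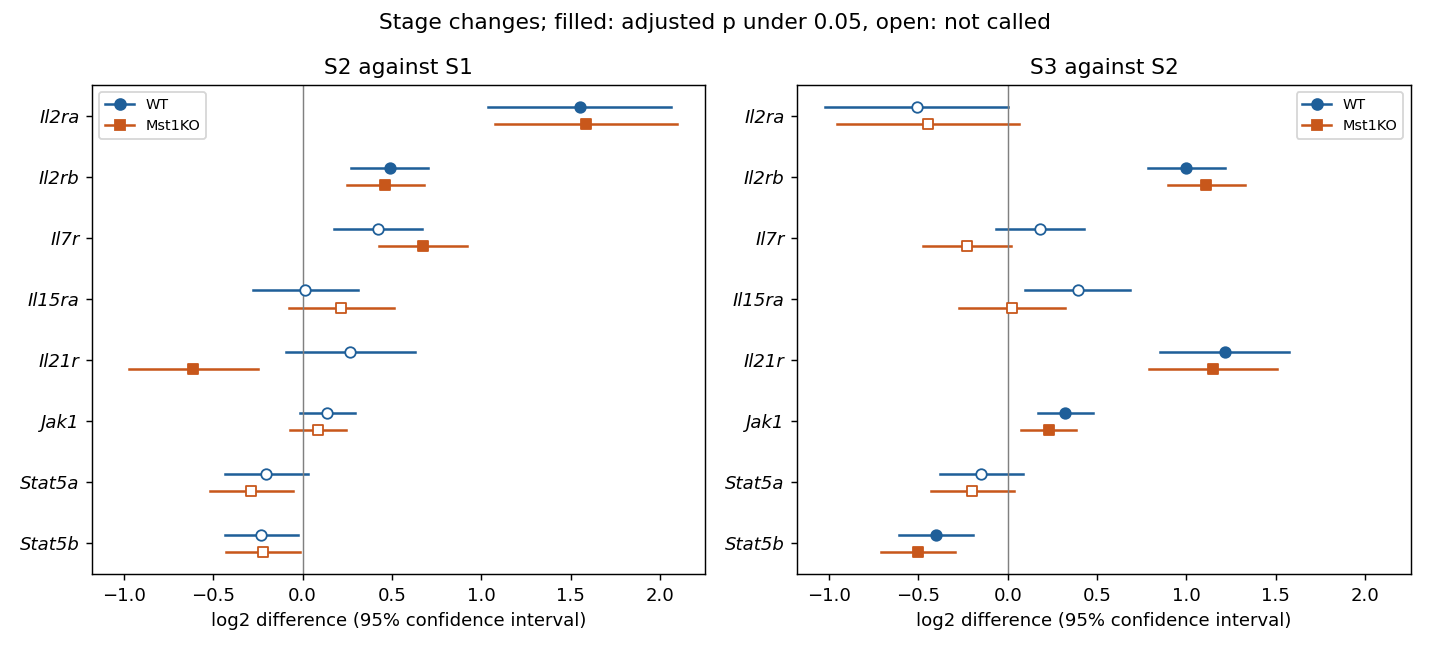
Log2 difference (x axis, with 95% confidence interval) of each gene (y axis) from S1 to S2 (left) and from S2 to S3 (right), in WT (circles) and Mst1KO (squares). Filled symbols have an adjusted p under 0.05. Il2ra stands out at the first step (1.55 and 1.59), and Il2rb (1.00 and 1.11) and Il21r (1.21 and 1.15) at the second.

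The whole span from S1 to S3 was added after the neighboring stages had been seen. Over it, 8 of 8 genes were called in WT, where 33.8% of all genes were, and 7 of 8 in Mst1KO, beside 26.6%. In WT 6 of the 8, the receptor chains and Jak1, rose (15.4% of all genes did), and the 2 STAT5 genes fell (18.4%). In Mst1KO 5 rose and 2 fell, beside 12.3% and 14.4%. The sizes were 1.49 ± 0.10 for Il2rb, 1.48 ± 0.17 for Il21r, 1.04 ± 0.24 for Il2ra, 0.60 ± 0.12 for Il7r, 0.46 ± 0.07 for Jak1 and 0.41 ± 0.14 for Il15ra. Stat5b fell by 0.63 ± 0.10 and Stat5a by 0.35 ± 0.11. In Mst1KO the gene not called was Il15ra, at 0.24 ± 0.14 (adjusted p = 0.236), and Stat5b fell by 0.73 ± 0.10 and Stat5a by 0.49 ± 0.11. Leaving out single arrays ended the WT calls of Il15ra (up to adjusted p = 0.166, without the second WT S1 array) and Stat5a (up to 0.0897, without the second WT S3 array) and the Mst1KO call of Il21r (up to 0.088, without the first Mst1KO S3 array). The WT calls of Il15ra and Stat5a also ended with only the 2 groups fitted (0.063 and 0.0622), and that of Il15ra with no filter (0.0518).

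Markers of other cells moved with these stages. The mean of 5 NK and innate lymphoid cell genes was 5.48 to 5.61 on WT S2 arrays and 6.74 to 6.88 on WT S3 arrays, and 5.79 to 5.86 and 6.63 to 6.91 in Mst1KO. S3 iNKT cells are sorted for the NK receptor NK1.1. Of these 5 genes, Fcer1g and Gata3 passed the array median on 18 arrays, Tyrobp on 14, Ncr1 on 4 and Eomes on none. Of the 4 tested, 3 were called higher at S3 than at S2 in WT and 1, Gata3, lower. In Mst1KO 2 were called higher and 1 lower. From S2 to S3 Fcer1g rose by 3.18 in WT and 2.86 in Mst1KO (adjusted p = 1.14e-09 and 6.7e-09) and Tyrobp by 2.01 and 2.35 (adjusted p = 9.89e-07 and 3.54e-07), both signaling adaptors of NK and myeloid cells, and Ncr1 rose by 1.36 in WT (adjusted p = 0.00637). The mean of 10 macrophage and dendritic cell genes was 4.92 to 5.17 at WT S1 and 5.598 to 5.758 at WT S3, and 5.05 to 5.13 and 5.80 to 6.14 in Mst1KO. The mean of 8 conventional T cell genes was lower at S3, at 8.03 to 8.34 on WT S1 and 6.67 to 6.77 on WT S3 arrays, and 8.30 to 8.77 and 6.48 to 6.67 in Mst1KO. The mean of 3 gamma-delta T cell genes was 7.06 to 7.60, 7.64 to 8.03 and 5.96 to 6.47 from S1 to S3 in WT, and 6.91 to 7.12, 8.12 to 8.42 and 7.37 to 7.55 in Mst1KO. The part of these markers in the receptor changes was not tested.

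Whether loss of MST1 alters the receptor system was read at each stage. None of the 8 genes was called between genotypes at S1, S2 or S3, by limma, where 0.33%, 1.17% and 3.4% of all genes tested were. At an unadjusted p under 0.05 the counts were 1, 1 and 0 of 8, beside 11.2%, 13.4% and 16.7% of all genes. The median difference of the 8 genes, Mst1KO minus WT, was 0.07 at S1, 0.06 at S2 and -0.06 at S3.

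The 3 differences without overlap between genotypes concerned Il21r at S1, Il7r at S2 and Il2ra at S3, where 18.1%, 16.8% and 23% of all genes had separate arrays. Il21r was higher in Mst1KO at S1 by 0.68 ± 0.17 (1.61-fold, 95% confidence interval 0.32 to 1.04, adjusted p = 0.101). With a variance trend and robust fit its adjusted p was 0.0475. At S2 and S3 its differences were -0.20 ± 0.17 and -0.26 ± 0.17. Il7r at S2 differed by 0.29 ± 0.12 (95% confidence interval 0.04 to 0.54, adjusted p = 0.273), and by 0.04 ± 0.12 and -0.12 ± 0.12 at S1 and S3.

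Il2ra was higher on average in Mst1KO at all 3 stages, by 0.39, 0.42 and 0.49, each ± 0.24, with adjusted p = 0.596, 0.485 and 0.33. At S3 the Mst1KO arrays, from 7.72 to 7.81, lay above the WT arrays, from 7.22 to 7.41. The SE of the fit also holds the wider spread of S1 and S2. The S3 difference was not called in any of 9 alternative settings or with any of the 6 arrays left out (lowest limma adjusted p = 0.0581).

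For the other genes the intervals bound what could have been missed. The 95% confidence intervals for Jak1 spanned -0.20 to 0.25 over the 3 stages, those for Stat5b -0.23 to 0.29 and those for Stat5a -0.30 to 0.30. Il2rb lay within -0.37 to 0.17. Il15ra reached from -0.56 to 0.40, with its lowest estimate at S3 (-0.26 ± 0.14). A doubling or halving of Jak1, Stat5a, Stat5b, Il2rb, Il7r or Il15ra therefore lay outside these intervals at every stage.

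**Figure D3:**
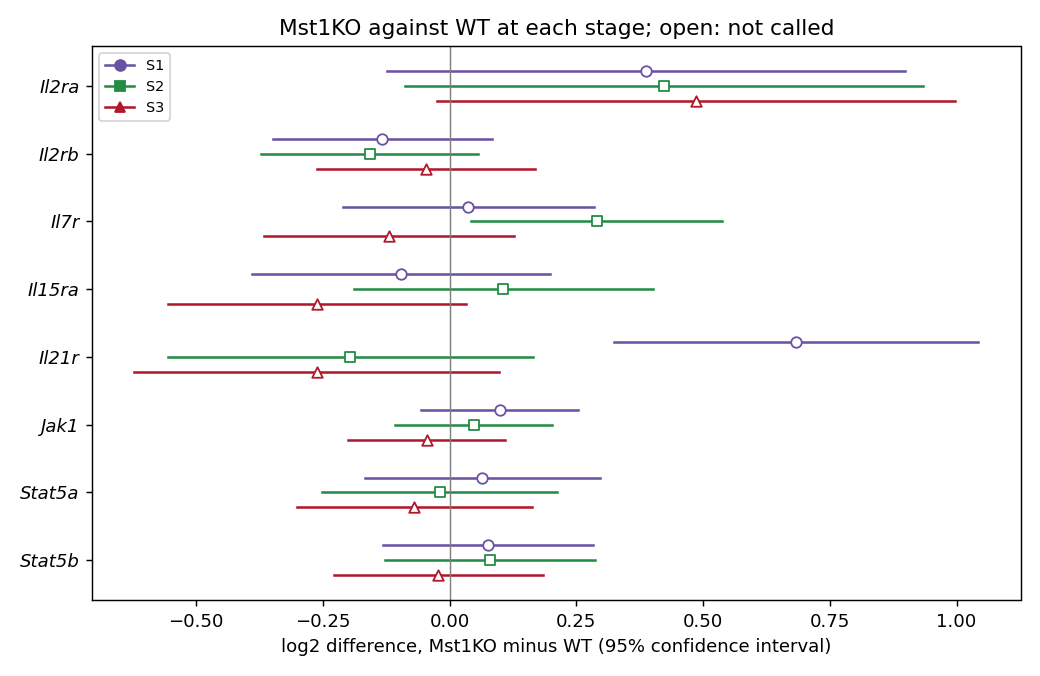
Log2 difference between Mst1KO and WT (x axis, with 95% confidence interval) of each gene (y axis) at S1 (circles), S2 (squares) and S3 (triangles). Open symbols mark that no gene was called. The S1 value of Il21r (0.68) lies farthest from 0, and the 3 Il2ra values (0.39, 0.42 and 0.49) lie on the same side.

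Whether the stage changes themselves differed between genotypes was tested as an interaction. None of the 8 genes was called by limma for S1 to S2, where 0.0153% of all genes were, or for S2 to S3, where 0.368% were, and 1 of 8 had an unadjusted p under 0.05 in each, beside 6.77% and 11.2% of all genes. Il21r had the largest interaction from S1 to S2, at -0.88 ± 0.24 (95% confidence interval -1.39 to -0.37, adjusted p = 0.397). Il7r had the largest from S2 to S3, at -0.41 ± 0.16 (adjusted p = 0.346). For the S1 to S3 span, added later, none of the 8 was called, beside 0.56% of all genes, and 1 had an unadjusted p under 0.05, beside 10.7%. There the change of Il21r was smaller in Mst1KO by -0.95 ± 0.24 (adjusted p = 0.105), which passed with array weights (adjusted p = 0.0477) or without the third WT S3 array (-1.08, adjusted p = 0.0495). The intervals for Il2rb, -0.33 to 0.28 and -0.19 to 0.42, exclude a stage change that differs by 1 log2 unit between genotypes.

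Within the set, Stat5a and Stat5b each correlated negatively with every receptor chain and with Jak1 over the 18 arrays, and all other pairs correlated positively. The values are given as descriptions because arrays of 1 group share their stage. Il2rb and Jak1 ran together (Pearson r = 0.94), Il2rb and Stat5b ran opposite (-0.965), and Jak1 and Stat5b did so too (-0.906). Il2ra was most like Il7r (0.855), and Stat5a like Stat5b (0.773). Il2ra and Il21r showed little common pattern (0.099).

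Among all genes tested, the pattern most like Il2rb was that of Gimap5 (r = 0.988, 18 arrays), a GTPase gene of lymphocytes, followed by Dusp1 (0.985), and the most opposite was Igfbp4 (-0.986). Jak1 was most like Pik3cd (0.978), the leukocyte PI3-kinase catalytic subunit, and Phf1 (0.973), and most opposite to Hspd1 (-0.978), a mitochondrial chaperone. Stat5b was most like Matk (0.964) and Ccr7 (0.962), a chemokine receptor of naive T cells, and most opposite to Mbnl1 (-0.969). Il7r was most like Cxcr6 (0.94), a chemokine receptor, and Acpp (0.933), and opposite to Recql4 (-0.887). Il21r was most like Fbxw4 (0.945) and Usp48 (0.934), and opposite to 2610524H06Rik (-0.921). Il2ra was most like Tmem176b (0.938) and Stk24 (0.928), a kinase gene of the same wider kinase family as Stk4, and opposite to Agfg1 (-0.882). The best matches of Stat5a (Phldb1, 0.894, and Psrc1, 0.89) and Il15ra (Efr3a, 0.845, and Rgs9, 0.824) were weaker, and their most opposite genes were Ctla2b (-0.893) and Cct3 (-0.839).

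The other genes of the pathway were followed in lists of ligands, receptor chains, kinases and STATs, inhibitors, target genes, regulators of the receptor genes and adaptors, 57 genes of which 49 were tested. Of the ligands, Il2, Il7, Il9, Il15 and Tslp stayed below the array median on 18 of 18 arrays. From S2 to S3, 20 of the 49 rose and 5 fell in WT and 16 rose and 4 fell in Mst1KO, beside 10.4% of all genes rising and 13.2% falling in WT and 8.01% and 9.18% in Mst1KO. In all, 51% and 40.8% of the 49 were called.

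Of the 10 genes known as STAT5 targets in lymphocytes, 7 rose from S2 to S3 in WT and none fell, with a median difference of 0.41 beside 0.00 over all genes. In Mst1KO 5 rose and none fell (median 0.33 beside -0.03). The largest change was in Bcl2, the survival factor. Its arrays read 9.15, 8.45 and 8.20 at WT S2 and 10.88, 10.74 and 10.61 at WT S3, a rise of 2.15 ± 0.20 (adjusted p = 6.89e-07). In Mst1KO they read 7.60, 8.10 and 8.10, then 10.32, 10.39 and 10.14, a rise of 2.35 ± 0.20 (adjusted p = 4.66e-07). No S2 array overlapped an S3 array. Bcl2l1, encoding the related survival factor BCL-XL, rose by 0.80 ± 0.11 and 0.78 ± 0.11, the kinase gene Pim1 by 0.40 ± 0.13 and 0.43 ± 0.13, and the cyclin gene Ccnd3 by 0.57 ± 0.09 and 0.48 ± 0.09. Mcl1, Pim2 and Ccnd2 were called in WT and Myc in Mst1KO. The calls of Bcl2, Bcl2l1 and Ccnd3 in both genotypes and of Pim2 in WT held when any single array was left out. Those of Pim1 (adjusted p up to 0.134 in WT without the third S3 array and 0.11 in Mst1KO without the third S3 array), Mcl1 (up to 0.101 without the second WT S2 array, and 0.217 with the mean of its probe sets), Ccnd2 (up to 0.0955 without the same array) and Myc (up to 0.0788 without the first Mst1KO S2 array) did not. From S1 to S2 no target was called in WT by limma (2 had an unadjusted p under 0.05, beside 16.4% of all genes), and in Mst1KO Bcl2 fell by 0.94 ± 0.20 and Pim2 rose by 0.49 ± 0.11, the latter not called without the second S1 (adjusted p = 0.0549) or second S2 array (0.0577).

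Of the 12 inhibitors, 5 rose from S2 to S3 in WT and 4 in Mst1KO, and none fell. Socs1, a feedback inhibitor of JAK kinases, rose by 0.63 ± 0.10 and 0.44 ± 0.10, Socs2 by 0.86 ± 0.10 and 0.40 ± 0.10, and the phosphatase gene Ptpn6 by 0.52 ± 0.08 and 0.55 ± 0.08. The mean of the Socs2 probe sets rose by 1.18 and 0.92, and its dimmer probe set went from 4.92 ± 0.09 to 6.41 ± 0.22 in WT and from 4.69 ± 0.19 to 6.13 ± 0.34 in Mst1KO (SD, n = 3), so the gap between the genotypes in the Socs2 rise depends on the probe set. Pias1 was called in WT and Sh2b3 in Mst1KO. Single arrays ended the Mst1KO call of Socs2 (adjusted p up to 0.0733, without the third S3 array), which was also lost with only the 2 groups fitted (0.0654), that of Sh2b3 (up to 0.181, without the first S3 array) and that of Pias1 (up to 0.0667, without the second WT S3 array). Among the other kinases and STATs, Stat4, the STAT of the IL-12 receptor, rose by 2.65 ± 0.29 and 2.98 ± 0.29, Tyk2 by 0.47 ± 0.09 and 0.36 ± 0.09, and Stat6 by 0.41 ± 0.07 and 0.37 ± 0.07. The neighbor of Il21r, Il4ra, rose by 1.86 ± 0.18 and 1.16 ± 0.18, and Il9r fell by 1.01 ± 0.20 and 0.88 ± 0.20. Il4 fell by 1.16 ± 0.12 and 1.03 ± 0.12.

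Of 8 regulators of the receptor genes, 4 were called from S2 to S3 in each genotype. Tbx21, encoding T-bet, which drives Il2rb in NK and T cells, rose by 1.27 ± 0.15 in WT and 1.58 ± 0.15 in Mst1KO, and Runx3 by 1.24 ± 0.21 and 0.83 ± 0.21, the latter not called without the first Mst1KO S3 array (0.71, adjusted p = 0.0646). Foxo1, a forkhead factor known to act on Il7r, fell by 0.43 ± 0.10 and 0.53 ± 0.10, and Runx1 by 0.83 ± 0.08 and 0.68 ± 0.08. With the mean of its probe sets Foxo1 fell by 0.23 and 0.29 (adjusted p = 0.0491 and 0.0176), and its dimmer probe set stood at 5.11 ± 0.09 and 5.08 ± 0.03 at WT S2 and S3 and at 5.08 ± 0.18 and 5.02 ± 0.08 in Mst1KO (SD, n = 3). In the PI3K arm, Pik3cd rose by 0.53 ± 0.08 and 0.42 ± 0.08, and Pik3r1 was called in WT (0.26 ± 0.08), a call lost without any 1 of 4 of the 6 arrays (adjusted p up to 0.128, without the first WT S3 array).

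**Figure D4:**
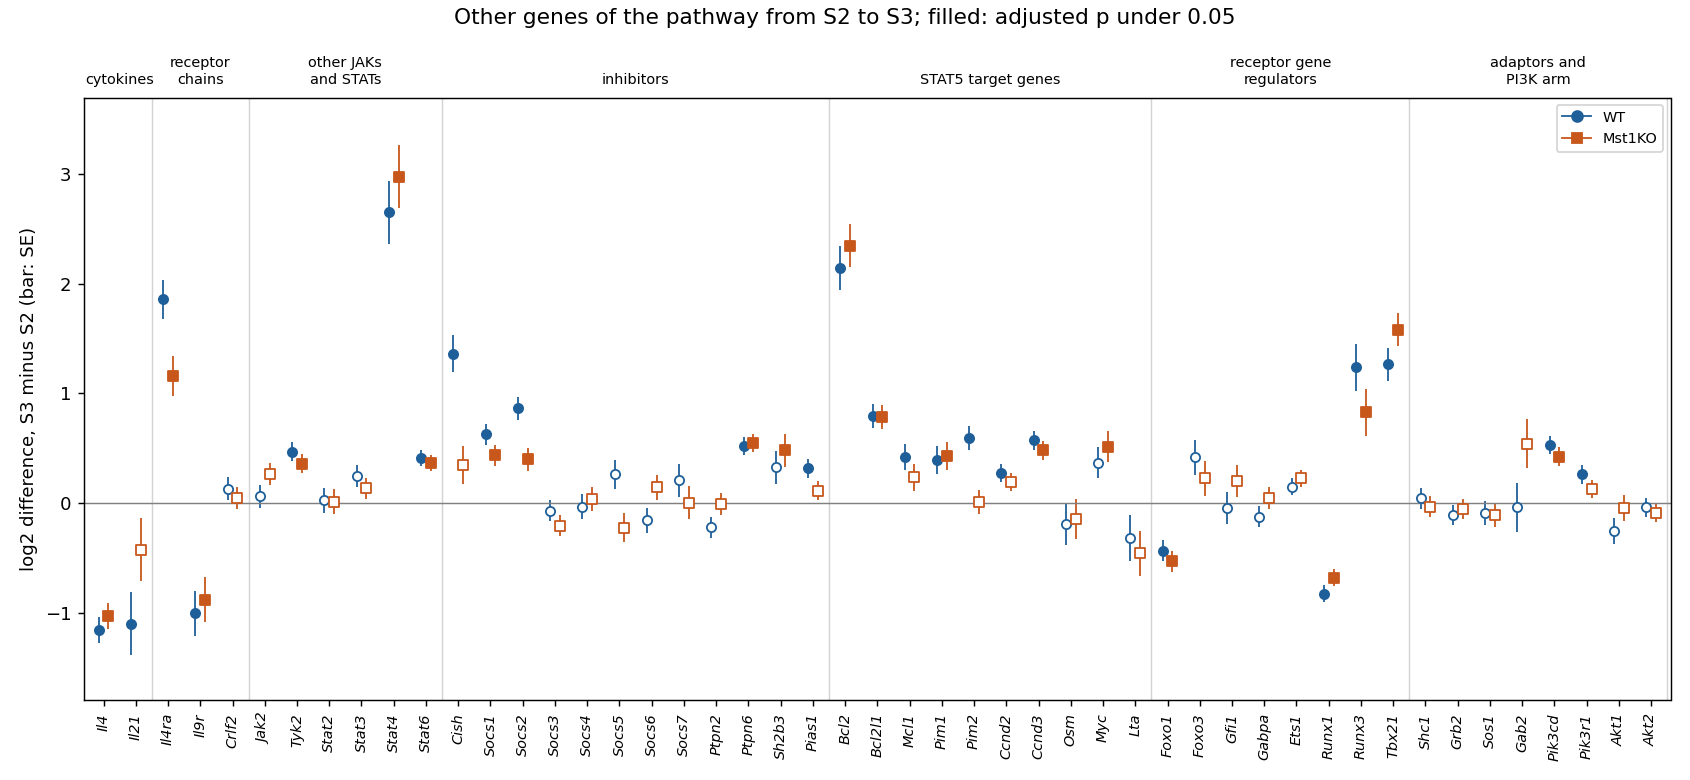
Log2 difference from S2 to S3 (y axis, bar: SE, n = 3 per group) of the 49 other pathway genes tested (x axis, by list) in WT (circles) and Mst1KO (squares). Filled symbols have an adjusted p under 0.05. Stat4 (2.65 and 2.98) and Bcl2 (2.15 and 2.35) rise most, and Cish is called in WT (1.36) and not in Mst1KO.

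Between genotypes, 2 of the 49 genes were called at S1, 2 at S2 and 4 at S3, or 4.08%, 4.08% and 8.16% beside the shares of all genes given above. The inhibitor Cish, itself a STAT5 target, differed at S3. WT S3 arrays read 8.49, 7.81 and 8.22 and Mst1KO S3 arrays 7.41, 6.96 and 7.15, against 6.56 to 7.07 on the S2 arrays of both genotypes. All Mst1KO S3 arrays thus lay below all WT S3 arrays. Cish was lower in Mst1KO at S3 with a log2 difference of -0.999 ± 0.17 (adjusted p = 0.00364), a call kept when any single array was left out but not when only these 6 arrays were fitted (adjusted p = 0.0539). A second, dimmer Cish probe set read 6.24 ± 0.08 in WT S3 and 5.66 ± 0.22 in Mst1KO S3 (SD, n = 3). The S2 to S3 rise of Cish was 1.36 ± 0.17 in WT and 0.35 ± 0.17 in Mst1KO, and the test of that difference gave -1.02 ± 0.24 with an adjusted p of 0.0978.

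Il4 was lower in Mst1KO at S1 (-0.64), S2 (-1.11) and S3 (-0.98, each ± 0.12, adjusted p = 0.0272, 0.000357 and 0.000108). Its WT arrays lay between 7.99 and 9.44 and its Mst1KO arrays between 7.17 and 8.78, without overlap at any stage, and the S1 call was lost in 6 of 6 cases when an array was left out (adjusted p up to 0.151). That S1 call of Il4 was also lost with only the groups compared (adjusted p = 0.145). Il4ra, the receptor chain for the same cytokine, was higher in Mst1KO at S1, where its arrays read 7.53, 7.40 and 7.10 beside 6.30, 6.15 and 6.36 in WT. That is the stage at which its neighbor Il21r was also higher without being called. The Il4ra difference of 1.08 ± 0.18 (adjusted p = 0.016) was lost without any 1 of 4 of the 6 arrays, namely the first and second of each genotype (adjusted p up to 0.109), and with only the groups compared (0.052).

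The inhibitors Socs3 at S2 (0.48 ± 0.10, adjusted p = 0.0219) and Socs5 at S3 (-0.63 ± 0.13, adjusted p = 0.0145) and the regulator Runx1 at S3 (0.32 ± 0.08, adjusted p = 0.0339) completed the calls. Leaving out 1 array ended the call of Socs3 in 4 of 6 cases (adjusted p up to 0.0815, without the second Mst1KO S2 array), of Socs5 in 3 of 6 (up to 0.0826, without the third Mst1KO S3 array) and of Runx1 in 4 of 6 (up to 0.15, without the third Mst1KO S3 array). With only the groups compared all of these calls ended (adjusted p = 0.16 for Socs3, 0.108 for Socs5 and 0.163 for Runx1). Socs3 was also lost with the mean of its probe sets (0.0649). Runx1 was also lost with no filter (0.0704) and with repeated quantile normalization (0.0567). None of the 10 genes listed as STAT5 targets was called between genotypes at any stage by limma. That list leaves out Cish, which was counted with the inhibitors and was called at S3. At an unadjusted p under 0.05 there were 2, 2 and 3 of the 10 at S1, S2 and S3, beside 11.2%, 13.4% and 16.7% of all genes. Bcl2, the most changed with stage, differed by -0.17, -0.67 and -0.46 (each ± 0.20) along the stages. Marker means also separated the genotypes. The mean of the 5 T and iNKT cell genes was higher in Mst1KO at all 3 stages without overlap. Gene by gene, 3, 4 and 3 of the 5 were higher at S1, S2 and S3, and 2, 1 and 2 were lower. Of these differences, 0, 0 and 1 were called. The list means were 11.557 to 11.65 in WT and 11.676 to 11.72 in Mst1KO at S1. At S2 they were 11.52 to 11.59 and 11.616 to 11.642, and at S3 11.241 to 11.323 and 11.397 to 11.461. The mean of the stage gate genes (Cd44, Klrb1c and Cd24a) was 7.156 to 7.284 at WT S3 and 7.405 to 7.457 at Mst1KO S3. At S3 the mean of the gamma-delta T cell genes was higher in Mst1KO (ranges above), with all 3 genes higher. The macrophage and dendritic cell mean was higher too, with 7 tested genes higher and 2 lower. The mean of the conventional T cell genes was lower (6.67 to 6.77 in WT and 6.48 to 6.67 in Mst1KO, without overlap before rounding). Of the 7 conventional T cell genes tested, 3 were higher and 4 lower in Mst1KO, with a median difference of -0.03 and 1 called. At S2 the mean of the gamma-delta T cell genes was higher as well, with 2 genes higher and 1 lower. The macrophage and dendritic cell mean was 5.17 to 5.32 in WT and 5.51 to 5.60 in Mst1KO (6 tested genes higher, 3 lower). The NK and innate lymphoid cell mean was 5.48 to 5.61 and 5.79 to 5.86 (3 tested genes higher, 1 lower). The mean of the regulatory T cell genes was lower in Mst1KO (ranges above). At S1 the mean of the NK and innate lymphoid cell genes was 5.49 to 5.61 in WT and 5.70 to 5.78 in Mst1KO. The part of these markers in the genotype differences was not tested.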

How the data were processed

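Gene expression was measured on Affymetrix MoGene-2_0 arrays in 18 samples, 3 for each of 6 groups set by genotype and sorted stage. RNA of sorted cells was amplified before hybridization, per the labels' protocols. Per the submitters' processing notes, the authors ran RMA with Affymetrix Expression Console 1.1. The deposited table holds the resulting log2 values of each probe set. RMA brings all arrays to a common distribution and compresses changes of dim genes. The summary level and annotation are not given in the sources used here.

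Of 41345 probe sets, 23521 carried 1 gene symbol. Those above their array's median on at least 3 arrays were kept, with the brightest for each gene, which left 13034 genes. A mean per group was fitted with limma 3.58.1 (lmFit, eBayes) in R 4.3.3, and p-values were Benjamini-Hochberg adjusted over all genes within each of 9 planned comparisons and 3 added after seeing the data (S3 against S1). The fit was also run on simulated data with independent noise for each gene, which cannot show how it handles spread shared between genes. Alternatives were no filter, a 75th percentile filter, repeated quantile normalization, median centering, a variance trend with robust fit, weights for arrays, averaging a gene's probe sets, fitting only the groups compared, blocking on the replicate number, and omitting single arrays in turn.

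The members and all gene lists were chosen with earlier results of these data known. Pathway genes were named where called in at least 1 comparison. Look-alike genes are the 2 with the highest and the 1 with the lowest Pearson correlation over 18 arrays. Sequences are from RefSeq (GRCm38.p6). Figures were made in Python 3.11.15 (pandas 2.3.3, matplotlib 3.10.9).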

Additional observations from a re-analysis of the deposited data

Results flagged for a closer look

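In 2 pathway genes the change from S1 to S3 differed between genotypes by limma's interaction test, a comparison added after the data had been seen. Il4ra rose by 3.16 ± 0.18 in WT and by 1.62 ± 0.18 in Mst1KO, a difference of -1.54 ± 0.26 (n = 3 per group, adjusted p = 0.00648), and adjusted p stayed between 0.0017 and 0.0264 over the alternatives run. Its mean went from 6.27 at S1 to 9.43 at S3 in WT and from 7.34 to 8.96 in Mst1KO. The smaller rise in Mst1KO thus started from a higher S1 level, a difference whose call was lost in some settings (given above). Cish rose by 1.69 ± 0.17 in WT and by 0.53 ± 0.17 in Mst1KO, a difference of -1.16 ± 0.24 (adjusted p = 0.0437). The Cish difference was no longer called in 9 of 12 cases when an array was left out (adjusted p up to 0.116, without the second Mst1KO S3 array), nor with no filter (0.0569), median centering (0.0501) or only the groups compared (0.0685).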

How the results depend on the processing

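Of the calls between neighboring stages, Il2ra (S1 to S2), Il2rb and Il21r (S2 to S3) in both genotypes and Il7r (S1 to S2) and Stat5b (S2 to S3) in Mst1KO held under every alternative run. At S1 between genotypes, 1 was called with the variance trend and robust fit, and 1 for the S1 to S3 interaction with array weights (Il21r both times). With only the groups compared, the count was 1 for WT S1 to S2, 2 for WT S2 to S3, 3 for Mst1KO S2 to S3 and 6 for WT S1 to S3. Leaving out single arrays gave 1 to 3 for WT S1 to S2, 2 to 4 for Mst1KO S1 to S2 and 0 to 1 for the S1 to S3 interaction. Differences near 0 that were never called changed sign in some settings: Il2rb at S3 to 0.027 and Il15ra from S2 to S3 in Mst1KO to -0.046 with repeated quantile normalization, and with median centering the latter to -0.001, Stat5b at S3 to 0.001 and the Stat5b S1 to S2 interaction to -0.022. With array weights that Stat5b interaction was -0.008 and the Il2rb one 0.016. Leaving out single arrays moved between genotypes Stat5a from -0.03 to 0.138 at S1, -0.074 to 0.058 at S2 and -0.135 to 0.015 at S3, Stat5b at S3 from -0.095 to 0.051, and at S1 Il7r from -0.046 to 0.086 and Il15ra from -0.224 to 0.013. It moved the S1 to S2 interactions of Il2ra from -0.22 to 0.30, Stat5b from -0.072 to 0.064, Il2rb from -0.098 to 0.058 and Stat5a from -0.158 to 0.011, and the S2 to S3 interactions of Il2ra from -0.20 to 0.32, Il21r from -0.20 to 0.12 and Stat5a from -0.128 to 0.035. The S1 to S3 interaction of Il2ra ran from -0.12 to 0.27, and Il15ra from -0.11 to 0.12 (WT S1 to S2) and -0.089 to 0.132 (Mst1KO S2 to S3). The causes were not tested. With replicate number as a block, the count for WT S1 to S2 was 3 (Il7r added, adjusted p = 0.00953) and no other count among the 8 changed, while a block within genotype also gave 3 there, 3 for Mst1KO S2 to S3 and 7 for WT S1 to S3. The labels do not say whether the replicate numbers pair arrays, and the main fit did not pair them. Same-numbered arrays' deviations from their group means correlated between -0.05 and 0.21 (0.094, 0.142 and 0.206 for WT S1 to S2). These values cannot decide whether the arrays are paired, since each deviation is from a mean of only 3 arrays. Limits are the 3 arrays per group, RNA amplification, and dim genes near the array median.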
